A study of Mus musculus with 12 samples.

Results

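The genes described here encode the lipid droplet coat and size proteins. Plin2, Plin3, Plin4, Plin5, Cidec, Fitm1, Fitm2 and Bscl2 were chosen by name, with earlier results of these data known. All 8 were found by their Ensembl identifier among the 23474 genes of the expression table. The table held 12 RNA-seq libraries of epididymal white adipose tissue (eWAT) from male C57BL/6J mice, with 3 libraries in each of 4 groups and each library made from 1 mouse. The ND group received a normal diet, the HFD group a high-fat diet, the GT group the high-fat diet with an ethanol extract of green tea at 0.25% (w/w), and the TJ group the high-fat diet with Taeeumjowuitang at 3% (w/w) (spelled Taeeumjowitang in part of the sample labels), a herbal formula of traditional Korean medicine. Each group had 10 mice, fed these diets over 12 weeks to an age of 17 weeks. The comparisons address what the high-fat diet changed and how each supplement, given within that diet, differed from the high-fat diet alone.

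A lipid droplet is a core of triglyceride and sterol ester enclosed by a single layer of phospholipid, and the proteins on that layer decide when lipases reach the core. White adipocytes are known for a large single droplet coated with perilipin 1, the product of Plin1. Perilipin 2 coats droplets in most cell types, lipid-laden macrophages among them, perilipin 3 moves between the cytosol and droplets, perilipin 4 coats small nascent droplets in adipocytes, and perilipin 5 is the form of oxidative tissues, where it links droplets to mitochondria. CIDEC transfers lipid between touching droplets so that they enlarge, the FIT proteins encoded by Fitm1 and Fitm2 act in the endoplasmic reticulum where droplets bud, and seipin, encoded by Bscl2, shapes the neck between the endoplasmic reticulum and the new droplet.

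In the GRCm38 build, the genes of 3 of the 4 perilipins lie on chromosome 17, all on the minus strand. Plin4 spans chr17:56100591-56109803, Plin5 spans chr17:56111601-56117596, with 1797 nt between them, and Plin3 spans chr17:56277476-56292873, a further 159879 nt away. Plin2 spans chr4:86648386-86670060 on the minus strand and Cidec spans chr6:113424634-113435760 on the minus strand. Fitm1 spans chr14:55575617-55576954 on the plus strand, Fitm2 spans chr2:163466379-163472629 on the minus strand, and Bscl2 spans chr19:8837467-8848683 on the plus strand. The library kit does not mark strand, so reads from overlapping genes on opposite strands cannot be told apart. Such overlaps are 17 nt between Plin4 and Hdgfl2, 375 nt between Fitm1 and Gm15932, 673 nt between Fitm2 and 2310001K24Rik and 1728 nt between Bscl2 and Gng3. Gng3 stayed at or under 0.828 FPKM and 2310001K24Rik at or under 4.39 FPKM in each library. Hdgfl2 measured 89.3 FPKM in ND replicate 1, where Plin4 measured 62.8 FPKM, and 5.94 to 18.8 FPKM in the other libraries. Bscl2 also overlaps AC129217.1 on its own strand by 3671 nt, which leaves its value uncertain.

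The sequences upstream of Plin2, Plin4 and Plin5 are shown because Plin4 and Plin5 are neighbours that were higher in TJ than in HFD libraries while Plin2 was lower. Each holds the 250 bases before the RefSeq transcription start (GRCm38.p6), written 5′ to 3′ on the minus strand. They cover chr4:86670060-86670309 for Plin2, chr17:56109783-56110032 for Plin4 and chr17:56117549-56117798 for Plin5, for which the first of 2 listed starts is shown. Capitals mark matches on either strand to AGGTCA, the half-site of many nuclear receptors, to TATAA and to CCAAT, which do not overlap one another here.
Plin2: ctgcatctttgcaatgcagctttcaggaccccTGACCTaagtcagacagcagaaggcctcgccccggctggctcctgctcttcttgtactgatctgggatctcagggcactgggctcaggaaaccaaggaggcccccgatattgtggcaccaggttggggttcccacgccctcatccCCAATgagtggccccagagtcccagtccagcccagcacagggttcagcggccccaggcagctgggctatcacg
Plin4: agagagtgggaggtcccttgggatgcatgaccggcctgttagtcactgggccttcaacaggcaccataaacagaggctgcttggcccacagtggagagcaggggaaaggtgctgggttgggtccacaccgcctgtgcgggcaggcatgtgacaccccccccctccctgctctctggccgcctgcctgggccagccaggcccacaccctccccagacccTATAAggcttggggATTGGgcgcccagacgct
Plin5: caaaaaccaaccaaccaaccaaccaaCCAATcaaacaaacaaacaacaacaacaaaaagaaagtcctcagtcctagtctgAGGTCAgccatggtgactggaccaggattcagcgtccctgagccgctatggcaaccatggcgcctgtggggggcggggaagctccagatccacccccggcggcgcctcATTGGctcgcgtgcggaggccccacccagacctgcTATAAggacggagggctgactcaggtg
Plin2 and Plin5 held AGGTCA, whose first base in the printed strand was 218 and 170 bases before the start, and Plin4 did not hold it in this window. Plin4 and Plin5 held TATAA at 32 and 27 bases before the start. CCAAT was found at 73 bases in Plin2, at 18 bases in Plin4 and at 224 and 62 bases in Plin5. Among 32817 RefSeq windows of the same length, 14.0% held AGGTCA, 22.8% held TATAA and 33.8% held CCAAT. The matches are descriptions of these letters and were not related to the expression values.

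Expression was measured as FPKM, fragments scaled to transcript length and to the mapped fragments of the library, so levels can be compared between genes. The depth, estimated from the smallest steps between FPKM values, was approximately 10.4M to 18.8M fragments per library. ND replicate 1 stood apart from the other libraries. Its FPKM summed to 1002770 against 527904 to 725245 in the other 11, its Spearman correlation with another ND library was as low as 0.724 while libraries within the other groups correlated at 0.945 or more, and a list of 9 germ cell genes summed to 98971 FPKM in it. The same list gave 2980 FPKM in ND replicate 3 and 2061 FPKM in HFD replicate 1, and at most 165 FPKM in each of the remaining libraries. A list of 9 epididymis genes summed to 20221 FPKM in ND replicate 1, 1291 FPKM in HFD replicate 2 and at most 13.8 FPKM elsewhere, and 10 adipocyte markers summed to 4409 FPKM in ND replicate 1 against 19509 to 69549 FPKM elsewhere. Adipocyte markers were abundant in those 11 libraries, as the tissue label says. Comparisons with the ND group are therefore given with and without replicate 1.

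**Figure D1:**
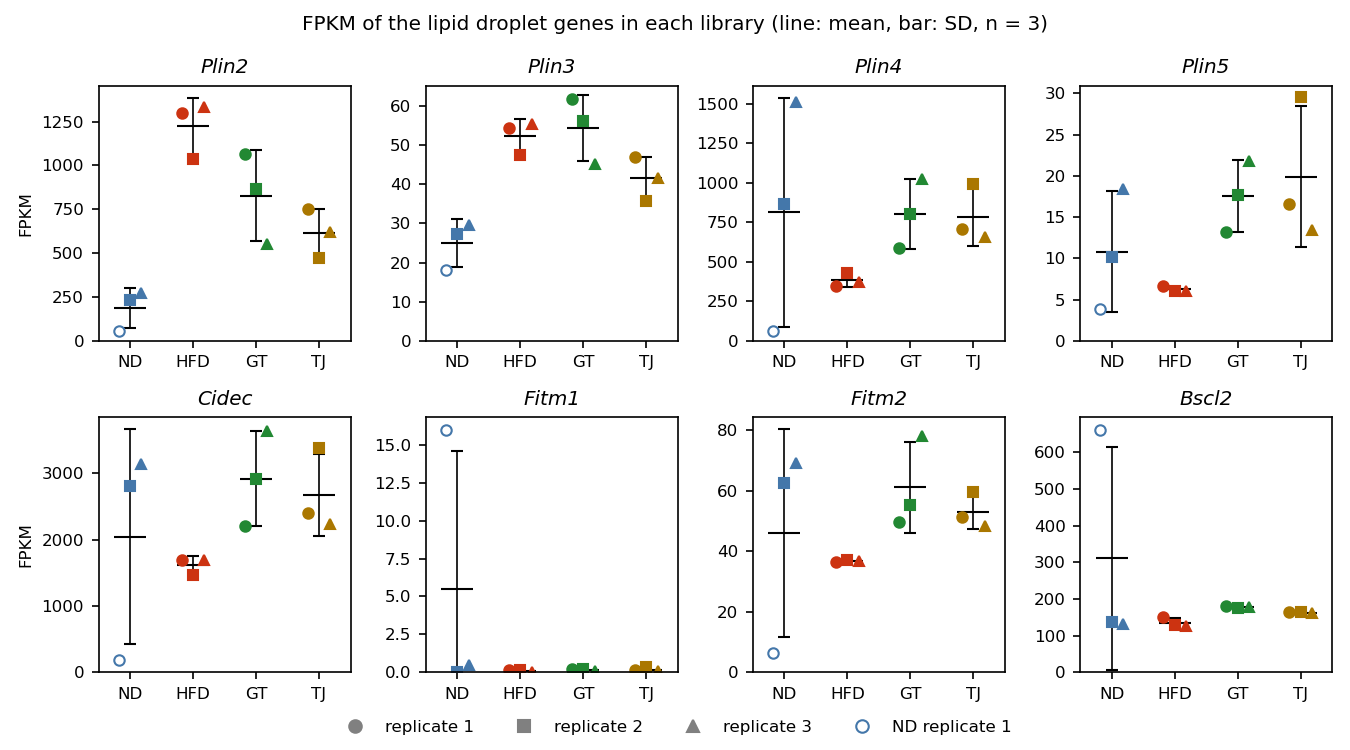
FPKM (linear axis) of the 8 genes in each of the 12 libraries, with 1 panel per gene and the groups ND, HFD, GT and TJ on the x axis. Points are libraries, horizontal lines are means and bars are SDs (n = 3, the lower bar ending at 0 at the least). The open circle is ND replicate 1, which is the lowest library of all for Plin2, Plin3, Plin4, Plin5, Cidec and Fitm2 and the highest for Fitm1 and Bscl2.

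Plin2, the perilipin found in most cell types, had its highest levels on the high-fat diet alone. It measured 58.8, 233 and 275 FPKM in ND replicates 1 to 3 and 1299, 1038 and 1336 FPKM in HFD replicates 1 to 3. The GT libraries held 1068, 867 and 551 FPKM and the TJ libraries 751, 471 and 621 FPKM. Every HFD library lay above every ND and every TJ library, and GT replicate 1 lay within the HFD range. The group means were 1224 ± 162 FPKM for HFD, 829 ± 261 for GT, 614 ± 140 for TJ and 189 ± 115 for ND (SD, n = 3 each), and the ND mean was 254 ± 29.9 FPKM without replicate 1 (SD, n = 2). In this order of levels, GT and its neighbours HFD and TJ overlapped.

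Plin3, the exchangeable perilipin, followed the same order between ND and HFD at a lower level. It measured 18.2, 27.2 and 29.6 FPKM in the ND group, 54.2, 47.5 and 55.4 in the HFD group, 61.8, 56.1 and 45.1 in the GT group, and 47.0, 35.8 and 41.6 in the TJ group. Every HFD library exceeded every ND library, and the GT libraries spread on both sides of the HFD libraries. The TJ libraries lay just under the HFD libraries, with 47.0 FPKM as the highest TJ value and 47.5 FPKM as the lowest HFD value.

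Plin4, the perilipin of nascent adipocyte droplets, was lowest on the high-fat diet alone once ND replicate 1 was set aside. It measured 62.8, 862 and 1511 FPKM in the ND group, 346, 427 and 375 in the HFD group, 585, 800 and 1023 in the GT group, and 704, 992 and 656 in the TJ group. Each GT and TJ library lay above each HFD library, as did ND replicates 2 and 3. The 3 ND libraries spanned the levels of the other 9, and the ND mean of 812 ± 725 FPKM (SD, n = 3) became 1187 ± 459 FPKM without replicate 1 (SD, n = 2).

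Plin5, the perilipin of oxidative tissues, had the lowest levels of the perilipins and the same pattern as Plin4. It measured 3.86, 10.2 and 18.4 FPKM in the ND group, 6.63, 6.00 and 6.10 in the HFD group, 13.2, 17.6 and 21.8 in the GT group, and 16.6, 29.6 and 13.5 in the TJ group. The HFD libraries lay within a narrow range, 6.24 ± 0.341 FPKM (SD, n = 3), below all GT and TJ libraries. The lowest TJ library held 13.5 FPKM, and the GT and TJ ranges overlapped.

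Cidec, the droplet fusion gene, was the most abundant of the 8 and ranked 24 of the 23474 genes by mean FPKM over the 12 libraries. It measured 182, 2802 and 3144 FPKM in the ND group, 1693, 1465 and 1698 in the HFD group, 2204, 2917 and 3630 in the GT group, and 2403, 3371 and 2241 in the TJ group. The HFD libraries again lay below all GT and TJ libraries and below ND replicates 2 and 3. Plin2 and Plin4 ranked 89 and 91, Bscl2 398, Fitm2 1921, Plin3 2183 and Plin5 6197.

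Of the FIT pair, Fitm2 was expressed throughout and Fitm1 was close to absent. Fitm2 measured 6.46, 62.6 and 69.0 FPKM in the ND group, 36.3, 37.1 and 36.8 in the HFD group, 49.7, 55.3 and 78.2 in the GT group, and 51.1, 59.7 and 48.5 in the TJ group. Fitm2 had the same order as Cidec, with the HFD libraries below the GT and TJ libraries and below ND replicates 2 and 3. Fitm1, known from skeletal muscle and heart, measured 15.98 FPKM in ND replicate 1, at most 0.482 FPKM in each other library, and was listed at 0 in ND replicate 2 and HFD replicate 3. A list of 7 skeletal muscle markers summed to 10.6, 1.63 and 1.69 FPKM in the ND libraries and to 4.69 to 11.97 FPKM in the others. Of these markers, 3 of the 7 (Ckm at 1.95 FPKM, Mylpf at 5.55 FPKM and Myh1 at 0.294 FPKM) were highest in ND replicate 1, as were the germ cell and epididymis lists. The other 4 (Pvalb, Tnnt3, Myh4 and Tnni2) were higher in another library, with Pvalb at 1.53 FPKM in ND replicate 1 and at up to 10.8 FPKM in the HFD group. The part of these lists in the Fitm1 value was not tested.

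Bscl2 varied least among the libraries other than ND replicate 1. It measured 662, 137 and 133 FPKM in the ND group, 150, 129 and 127 in the HFD group, 181, 177 and 179 in the GT group, and 163, 165 and 161 in the TJ group. The GT libraries were the highest of the high-fat diet groups, the TJ libraries came next, and the HFD libraries were the lowest, with no overlap between these groups. ND replicate 1 was 662 FPKM against 137 and 133 FPKM in the other ND libraries.

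Groups were tested with limma on log2(FPKM + 1), where differences of low genes are understated, and a gene was called when its Benjamini-Hochberg adjusted p-value over all tested genes was under 0.05 and its fold change at least 1.5. In bulk tissue, fewer cells of a type and less RNA per cell cannot be told apart. Fitm1 reached the filter of a mean FPKM of 1 only through ND replicate 1 and was tested only against the ND group, so that 8 genes were tested there and 7 in the other comparisons. With 3 libraries a group, the smallest two-sided p of an exact permutation test of a single gene is 0.1.

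The high-fat diet was compared with the normal diet first. With all 6 libraries, 0 of the 8 genes were called, where limma called 1.77% of 14430 genes, and 2 of the 8 had an unadjusted p under 0.05, as did 1672 of the 14430. These were Plin2, with a log2 fold change of 2.96 (SE 0.65, adjusted p = 0.111), and Plin3, with 1.06 (SE 0.30, adjusted p = 0.203). Both were also the only ones of the 8 whose ND and HFD libraries did not overlap, as did 26.4% of all genes tested, 20.5% with higher HFD values. The median log2 fold change of the 8 genes was 0.02, and that of the 7 other than Fitm1 was 0.23, beside 0.07 over all genes.

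Without ND replicate 1, which left 2 ND libraries against 3 HFD libraries, 5 of 7 genes were called, 2 higher and 3 lower, beside 15.4% of 13661 genes, 11.0% higher and 4.34% lower. Plin2 rose by 2.26 on the log2 scale (SE 0.17, adjusted p = 0.0017), a 4.82-fold ratio of the mean FPKM, and Plin3 rose by 0.86 (SE 0.12, adjusted p = 0.0118), a 1.85-fold ratio. Plin4 fell by 1.58 (SE 0.26, adjusted p = 0.0178), Cidec fell by 0.88 (SE 0.15, adjusted p = 0.0178) and Fitm2 fell by 0.82 (SE 0.11, adjusted p = 0.0087), all on the log2 scale. Plin5, at -1.02 (SE 0.26, adjusted p = 0.0572), was not called, and Bscl2, at 137 and 133 FPKM against 127 to 150 FPKM, had a 95% interval of -0.31 to 0.31 for its log2 fold change. The HFD and ND libraries then did not overlap for 6 of the 7, beside 47.2% of all genes, and the median log2 fold change of the 7 was -0.82, beside -0.02 over all genes. With ND replicate 1, Cidec and Fitm2 had the opposite sign, 0.46 (SE 1.15) and 0.23 (SE 0.89).

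The replicate numbers of the ND and HFD libraries were also fitted as a block, although nothing in the labels pairs these mice. The deviations of HFD replicate 3 from its group mean correlated more closely with those of ND replicate 2 (0.63) than of ND replicate 3 (0.12). With the number as a block, 0 of the 8 genes and 0 genes in all were called, beside 2239 genes with an unadjusted p under 0.05. Without ND replicate 1, the block left 1 of the 7 called, Plin2, at 2.21 (adjusted p = 0.027), and 501 genes in all.

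Within the high-fat diet, TJ was compared with HFD. Of the 7 genes tested, 4 were called, 3 higher and 1 lower in the TJ group, where limma called 18.5% of 12807 genes, 7.41% higher and 11.1% lower (949 and 1417 genes, which became 1285 and 1084 with median-of-ratios scaling and 1543 and 1151 with quantile normalization). Plin5 rose by 1.45 on the log2 scale (SE 0.27, adjusted p = 0.0248), a 3.19-fold ratio of means, Plin4 rose by 1.02 (SE 0.20, adjusted p = 0.0268), a 2.05-fold ratio, and Cidec rose by 0.70 (SE 0.20, adjusted p = 0.0492), a 1.65-fold ratio. Plin2 fell by 1.01 on the log2 scale (SE 0.21, adjusted p = 0.0292) and its mean FPKM was 1.99-fold lower. Fitm2, at 0.51 (SE 0.13, adjusted p = 0.0387), missed the fold change of 1.5, and Plin3, at -0.34 (SE 0.15, adjusted p = 0.131), and Bscl2, at 0.27 (SE 0.13, adjusted p = 0.155), were not called.

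All 7 genes had TJ libraries that did not overlap the HFD libraries, against 51.5% of all genes tested, 20.1% higher and 31.4% lower. The median log2 fold change of the 7 was 0.51, beside -0.14 over all genes, and scaling to median ratios or quantiles moved the latter to -0.01 and 0.03. The directions of the 7 genes held under both scalings, where Cidec was no longer called (adjusted p = 0.0513 and 0.0782) and, under quantiles, had a log2 fold change of 0.38. The limma call of Cidec was also lost with the replicate number as a block (adjusted p = 0.0947), with array weights (adjusted p = 0.0617) and with the trend on gene length removed (adjusted p = 0.0687). Fitm2 gained a limma call with median-of-ratios scaling (0.65, adjusted p = 0.0367) and with the length trend removed (0.75, adjusted p = 0.02). Without the filter on low values, and with all 12 libraries in the fit, 0 of the 7 were called, the adjusted p running from 0.0553 to 0.216 and from 0.143 to 0.812. The calls depended on single libraries. Leaving out HFD replicate 1, 2 or 3 or TJ replicate 1 left 0 of the 7 and 0 of all genes called, leaving out TJ replicate 2 left 3 of the 7, and leaving out TJ replicate 3 left 4. The adjusted p of Plin2 then ranged from 0.0185 to 0.123 and its log2 fold change from -1.17 to -0.83.

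The GT group was compared with the same HFD libraries, so the 2 comparisons share their controls. Of the 7 genes, 2 were called, both higher in the GT group, where limma called 3.63% of 12766 genes, 1.83% higher (233 genes higher and 231 lower, which became 400 and 145 with median-of-ratios scaling and 405 and 162 with quantile normalization). Plin5 rose by 1.33 on the log2 scale (SE 0.17, adjusted p = 0.0319), a 2.81-fold ratio of means, and Plin4 rose by 1.04 (SE 0.21, adjusted p = 0.0477), a 2.099-fold ratio. Cidec, at 0.82 (SE 0.19, adjusted p = 0.0558), Fitm2, at 0.69 (SE 0.17, adjusted p = 0.062), and Bscl2, at 0.40 (SE 0.10, adjusted p = 0.0633), lay above each HFD library but were not called. Plin2 had a log2 fold change of -0.61 (SE 0.25, adjusted p = 0.159) and Plin3 one of 0.04 (SE 0.14, adjusted p = 0.853).

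GT and HFD libraries did not overlap for 5 of the 7 genes, all higher in the GT group, against 36.7% of all genes tested, 12.3% higher. The median log2 fold change was 0.69, beside -0.12 over all genes. Both calls were lost with the libraries HFD replicate 1, 2 or 3 or GT replicate 2 or 3 left out one at a time, and 4 genes were called without GT replicate 1. Both were also lost in limma without the filter on low values (adjusted p = 0.063 for Plin5 and 0.094 for Plin4), with the replicate number as a block (adjusted p = 0.0955 for each) and with all 12 libraries in the fit (adjusted p = 0.9999 for each). The limma call of Plin4 was lost as well with quantile normalization (adjusted p = 0.0545) and without a mean-variance trend (adjusted p = 0.0651). Cidec gained a limma call with a filter at 5 FPKM (adjusted p = 0.0395), quantile normalization (0.0325), array weights (0.0021) and the length trend removed (0.0311). Fitm2 gained a limma call with the filter at 5 FPKM (adjusted p = 0.0456) and with the length trend removed (0.0335).

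TJ and GT were then compared directly, which is the test of whether the supplements differed. Of the 7 genes, limma called 0, and 0 had an unadjusted p under 0.05, where 0.148% of 12187 genes were called and 2996 had such a p. The 95% interval of the log2 difference, TJ minus GT, ran from -1.08 to 0.27 for Plin2, from -0.78 to 0.02 for Plin3, from -0.64 to 0.60 for Plin4, from -0.57 to 0.81 for Plin5, from -0.77 to 0.53 for Cidec, from -0.63 to 0.28 for Fitm2 and from -0.44 to 0.17 for Bscl2. Differences of 1.5-fold therefore lay within the interval of each gene other than Bscl2 in at least 1 direction. Bscl2 was the gene whose TJ and GT libraries did not overlap, with 161 to 165 FPKM in TJ and 177 to 181 FPKM in GT, as in 34.4% of all genes, 14.9% lower.

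**Figure D2:**
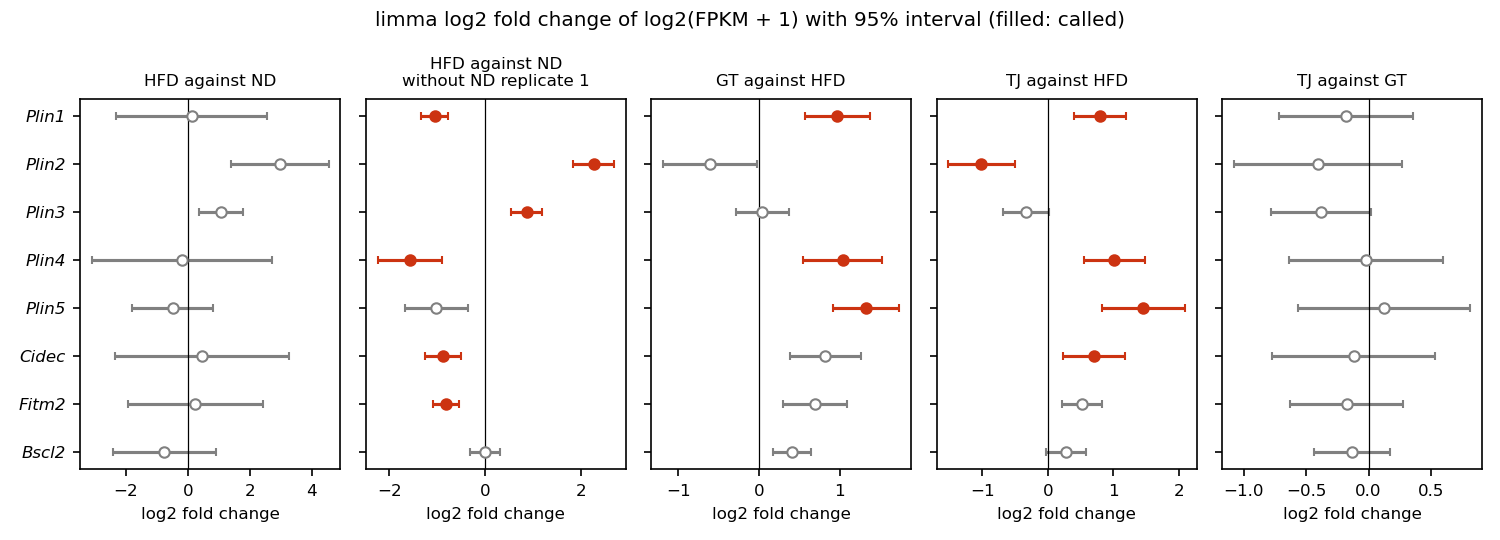
limma log2 fold change of Plin1 and of the 7 genes tested throughout (rows) in each comparison (panels, with separate x axes), with 95% intervals as bars. Filled points passed the adjusted p and fold change thresholds. Plin2 lies on the other side of 0 from Plin4, Plin5 and Cidec in the panels of TJ against HFD, of GT against HFD, where Plin2 and Cidec were not called, and of HFD against ND without ND replicate 1, where Plin5 was not called.

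The makeup of the perilipin transcripts was described as each gene's share of the summed FPKM of Plin1 to Plin5 in a library, which does not depend on how libraries were scaled. In the HFD libraries Plin2 made up 56.6% to 63.4% of the sum, Plin4 16.9% to 23.3% and Plin1 16.1% to 17.1%. The share of Plin2 was 22.3% to 47.5% in the GT group, 21.1% to 37.1% in the TJ group, 10.8% and 12.8% in ND replicates 3 and 2 and 29.0% in ND replicate 1. Plin4 made up 34.8% to 44.4% in the TJ group and 26.0% to 41.5% in the GT group, above each HFD library. The sum itself was 203, 1814 and 2540 FPKM in ND replicates 1 to 3, with a median of 1814 FPKM and of 2177 FPKM without replicate 1, and it had a median of 2049 FPKM in the HFD group, 2393 in the GT group and 2023 in the TJ group. The sums of the TJ libraries, 1872 to 2232 FPKM, overlapped those of the HFD libraries, 1833 to 2113 FPKM.

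**Figure D3:**
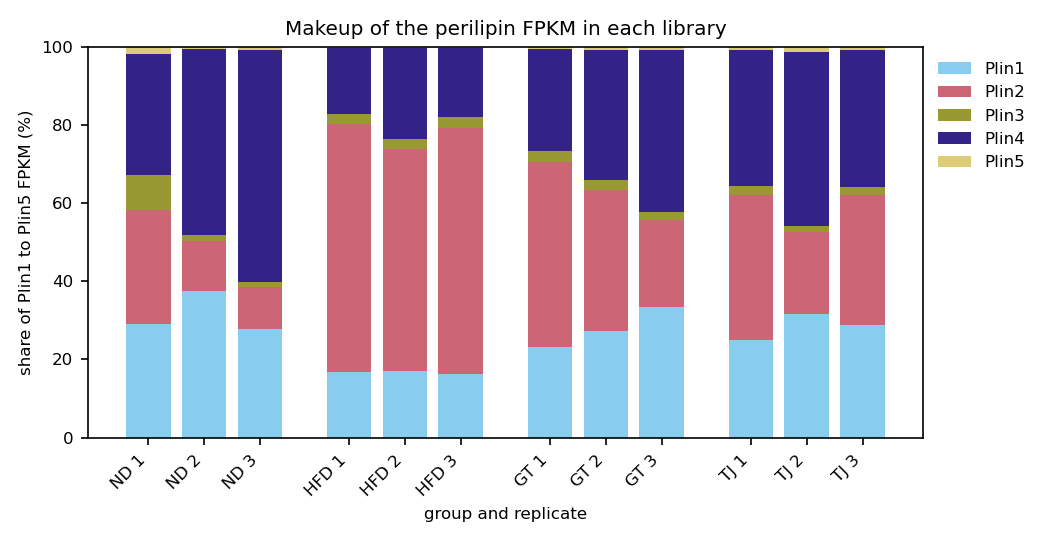
Share of each perilipin gene (stacked bars, %) in the summed FPKM of Plin1 to Plin5, by group and replicate. Plin2 is 56.6% to 63.4% in the HFD libraries and 47.5% or less in each other library, of which GT replicates 1 and 2 and TJ replicate 1 also have Plin2 as the largest share.

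Plin1 rose in the TJ group by 0.79 (SE 0.17, adjusted p = 0.0293) and in the GT group by 0.97 (SE 0.17, adjusted p = 0.0379) on the log2 scale against HFD. Neither limma call was kept with all 12 libraries in the fit or with any 1 of the HFD libraries left out. That in GT was also lost with no filter, with the replicate number as a block and without a mean-variance trend. Members were also expressed relative to Plin1 within each library. The Plin2 to Plin1 ratio was 0.995, 0.341 and 0.390 in the ND libraries, 3.78, 3.30 and 3.92 in the HFD libraries, 2.06, 1.33 and 0.668 in the GT libraries, and 1.49, 0.670 and 1.15 in the TJ libraries. The HFD libraries lay above all others, 3.49-fold above TJ and 2.99-fold above GT by geometric mean. Each of these differences had p = 0.1 by a two-sided exact permutation test, the smallest that 3 libraries against 3 allow, and 0.215 after Benjamini-Hochberg adjustment over the 28 ratios tested.

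Relative to Plin1, Plin3 was also lower in TJ (log2 difference -1.14) and in GT (-0.93) than in HFD, as were Bscl2 (-0.52 and -0.57) and Fitm2 (-0.27 in both), and Plin5 was higher (0.80 and 0.49), each without overlap and with an exact permutation p of 0.1. Plin4 relative to Plin1 had log2 differences from HFD of 0.22 in TJ (exact permutation p = 0.2) and 0.06 in GT (exact permutation p = 0.6), with overlapping libraries in both. Cidec differed by -0.09 in TJ (exact permutation p = 0.3) and by -0.15 in GT, without overlap (exact permutation p = 0.1). These values depended on the reference gene. With Adipoq in place of Plin1, the difference of Plin5 between TJ and HFD was 0.13, with overlapping libraries (exact permutation p = 0.4), and that between GT and HFD 0.71. That of Plin4 was then -0.45 in TJ, the opposite sign, and 0.28 in GT. That of Cidec was -0.76 in TJ and, with the opposite sign, 0.067 in GT. In TJ, the differences of Plin3, Bscl2 and Fitm2 from HFD were then -1.81, -1.19 and -0.94. In GT, they were -0.71, -0.35 and -0.051, each with overlapping libraries (exact permutation p = 0.2, 0.3 and 0.8).

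Markers of several cell types moved with these genes. The 10 macrophage markers (among them Cd68, Adgre1 and Trem2) summed to 68.1, 565 and 442 FPKM in the ND libraries, 5091, 3824 and 5388 in the HFD libraries, 3422, 2969 and 1402 in the GT libraries, and 2562, 750 and 2105 in the TJ libraries. Of the 10, 7 fell in the TJ group against HFD, 0 were called in the GT group although all 10 were lower, and 10 rose in the HFD group against ND without ND replicate 1 (4 with it, 9 and 0 with the replicate number as a block). GT replicate 3 and TJ replicate 2 had the lowest macrophage sums and the lowest Plin2 and Plin3 of their groups. Those 2 libraries had the highest Plin4, Plin5, Cidec and Fitm2 of their groups.

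The 10 adipocyte markers summed to 22078, 21353 and 19509 FPKM in the HFD libraries, 28522, 32906 and 36944 in the GT libraries, and 46221, 69549 and 38051 in the TJ libraries. Of them, 6 rose in the TJ group and 3 in the GT group against HFD, and 6 fell in the HFD group against ND without ND replicate 1 (0 with it, 1 and 0 with the block). Of the 10, 9 were higher by sign in each supplement group. Lpl was the exception in TJ, with 2068, 1145 and 2403 FPKM against 2008, 2563 and 2866 in HFD, and Cebpa in GT, with 126, 117 and 144 FPKM against 175, 138 and 172, and neither was called. Fabp4 and Car3 made up most of the sums, with 28658 and 10916 FPKM in TJ replicate 1. ND replicates 2 and 3 held sums of 50923 and 30747 FPKM. The TJ libraries lay above all HFD libraries, as Plin4, Plin5, Cidec and Fitm2 did. Of 5 progenitor markers (Pdgfra among them), all were lower than in HFD, 2 of them called in TJ and 3 in GT, and their sums were 631 to 735 FPKM in HFD, 500 to 533 in GT and 481 to 545 in TJ. The 5 endothelial markers were all higher in both, 1 of them called in TJ. Of 6 mesothelial markers tested, 6 were lower in TJ (1 called) and 5 in GT (0 called), with sums of 4.26 to 37.4 FPKM over the 9 libraries. In HFD against ND without ND replicate 1, 2 of 5 progenitor markers were called higher and 3 of 7 mesothelial markers lower, with all 7 lower by sign, and 0 of 5 endothelial markers were called. With ND replicate 1, or with the block, 0 of these 3 lists' markers were called.

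Since 0 genes in all were called in TJ against HFD without HFD replicate 1, 2 or 3 or TJ replicate 1, the marker calls were lost there too, and 2 (1 adipocyte and 1 progenitor) were left with no filter and 0 with all 12 libraries. In GT against HFD, 0 of these markers were called with no filter, with the block, with all 12 libraries, or without HFD replicate 2 or 3 or GT replicate 2 or 3. Without HFD replicate 1, 1 adipocyte and 1 progenitor marker were called there. In HFD against ND, 0 macrophage markers were called without any 1 of the HFD libraries. Of the germ cell list, 8 genes were tested, and all 8 were lower than in HFD in the TJ and in the GT group, with 0 called. Their list summed to 29.3 to 2061 FPKM in HFD, 15.8 to 76.8 in GT and 0.685 to 9.23 in TJ. The part of these cell types and of the germ cell transcripts in the results was not tested.

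**Figure D4:**
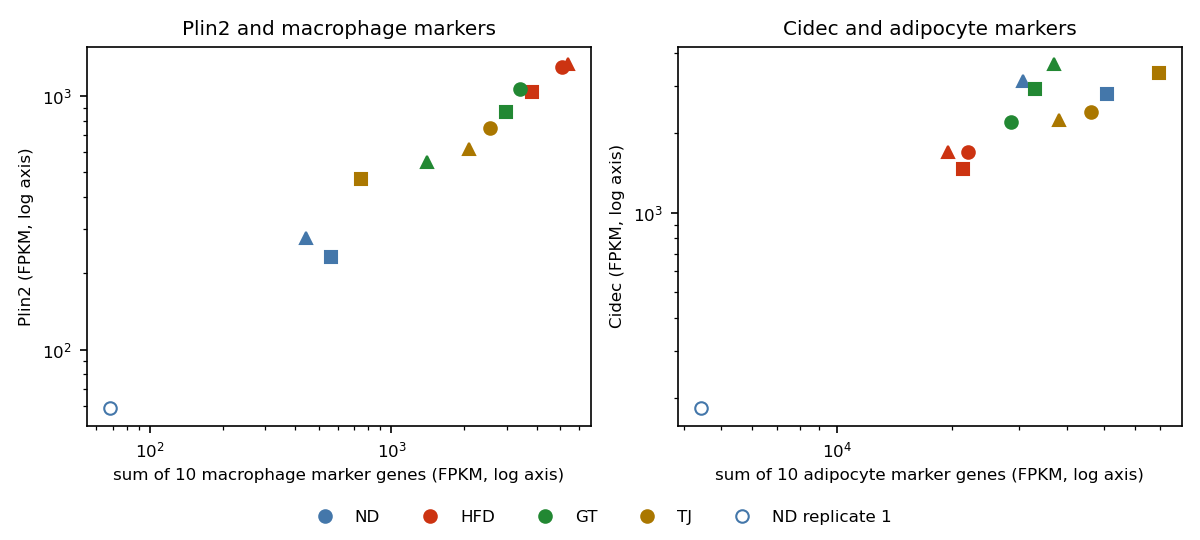
Left, Plin2 against the summed FPKM of 10 macrophage markers, and right, Cidec against that of 10 adipocyte markers, in each library (log axes, colours for groups, open circle for ND replicate 1). The HFD libraries have 3824 to 5388 FPKM of macrophage markers and the highest Plin2 apart from GT replicate 1, and they have the lowest Cidec of the libraries other than ND replicate 1.

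Other proteins of the droplet surface and its lipases were taken from a list of 32 genes. It was written from general knowledge, with earlier results of these data known. Of the 32 genes, 31 were in the table, 1 of them listed at 0 in all libraries. In the TJ group, 7 of 28 tested genes were called against HFD, 4 higher and 3 lower, beside the 18.5% of all genes. G0s2, an inhibitor of the lipase ATGL, rose by 1.49 (SE 0.24, adjusted p = 0.0238) and Mettl7a1, a droplet-bound methyltransferase-like protein with close paralogs that could share its reads, rose by 1.33 (SE 0.21, adjusted p = 0.023), both on the log2 scale. Nsdhl, a cholesterol synthesis enzyme, fell by 1.09 (adjusted p = 0.038), Pcyt1a, which makes the precursor of phosphatidylcholine, fell by 0.82 (adjusted p = 0.0387), and the vesicle GTPase Rab8a fell by 0.79 (adjusted p = 0.0223). The median log2 fold change of the 28 was -0.13, beside -0.14 over all genes. The calls fell to 0 when HFD replicate 1, 2 or 3 or TJ replicate 1 was left out, and numbered 8 and 10 without TJ replicates 2 and 3. They numbered 2 with no filter, 0 with all 12 libraries and 3 with the replicate number as a block.

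In the GT group, 4 of 29 were called, 3 higher and 1 lower, beside the 3.63% of all genes, with Plin1, Aifm2 (0.65, adjusted p = 0.034) and G0s2 (0.59, adjusted p = 0.0379) higher and Rab8a lower (-0.78, adjusted p = 0.0338). Aifm2 encodes FSP1, which reduces coenzyme Q. None of the 29 was called when any 1 of the HFD libraries or GT replicate 2 or 3 was left out, and 6 were without GT replicate 1. The list also had 0 calls with no filter, with all 12 libraries, with the replicate number as a block and without a mean-variance trend. Against ND without replicate 1, 12 of 29 were called in the HFD group, 7 higher and 5 lower, beside the 15.4% of all genes, 11.0% higher and 4.34% lower. With the replicate number as a block, 0 of the 29 were called without ND replicate 1. Clstn3, whose product includes an adipocyte droplet form, rose by 1.02 (adjusted p = 0.0342), Nsdhl by 0.93 (adjusted p = 0.011) and Rab8a by 0.80 (adjusted p = 0.0131), while Mettl7a1 fell by 1.26 (adjusted p = 0.0072), Plin1 fell by 1.06 (adjusted p = 0.0046) and Pnpla2, the lipase ATGL itself, fell by 0.99 (adjusted p = 0.0116). With ND replicate 1 included, 0 of 29 were called and 6 had an unadjusted p under 0.05, beside 1672 of all 14430 genes, the largest log2 fold change being that of Nsdhl, 1.28 (adjusted p = 0.236). Between TJ and GT, limma called 0 of 28 and 11 had an unadjusted p under 0.05, beside 2996 of all 12187 genes, the largest difference being that of Vps13c, a lipid transfer protein, at -0.91 (adjusted p = 0.134).

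**Figure D5:**
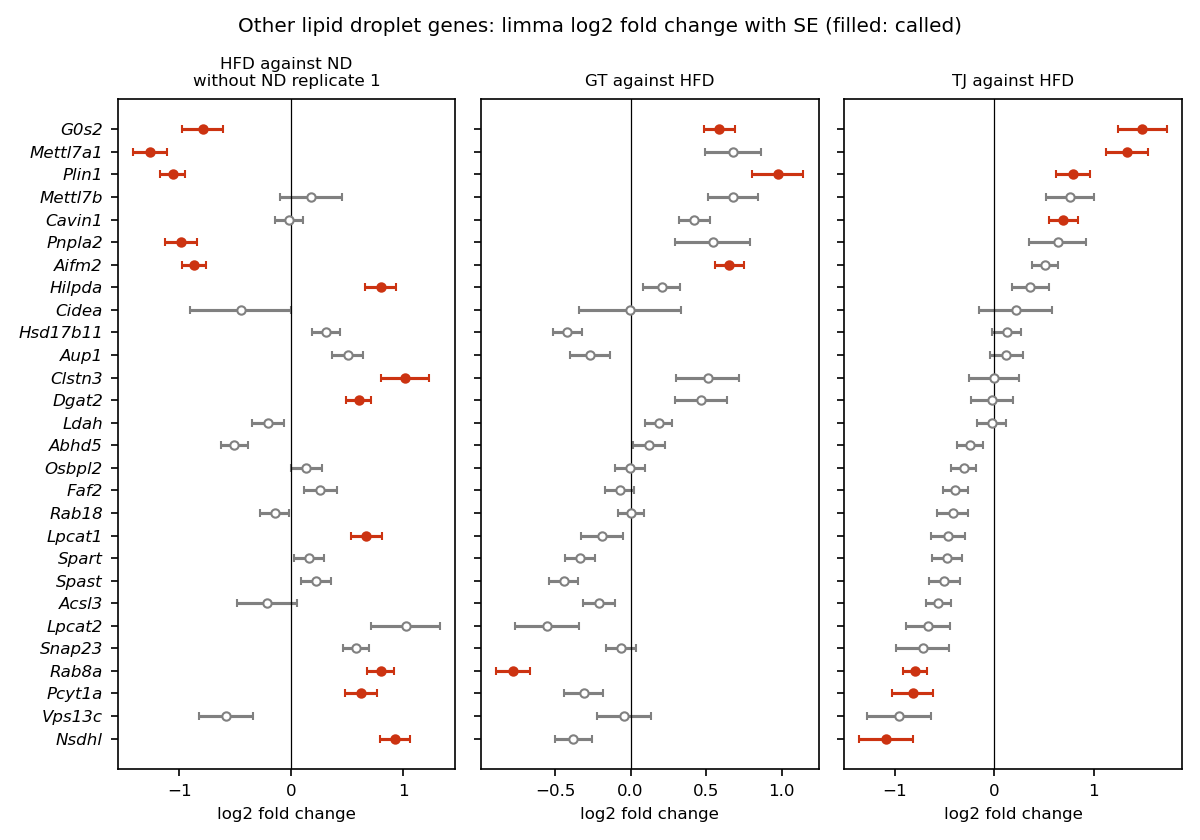
limma log2 fold change with SE of the other droplet genes (rows, in the order of TJ against HFD) in 3 comparisons (panels, separate x axes). Filled points passed both thresholds, 12 in HFD against ND without ND replicate 1, 4 in GT against HFD and 7 in TJ against HFD.

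The genes whose levels followed each member most closely were found by Pearson correlation of log2(FPKM + 1) among 7529 genes whose mean reached 10 FPKM, given as a description because the libraries share groups and cell makeup. Over 12 libraries, Plin2 was closest to Abcg1 (r = 0.997), Hmox1 (0.996) and Nrros (0.995), and over 11 libraries without ND replicate 1 to Vat1 (0.998). Plin3 was closest to Ucp2 (0.983 over 12 libraries), with Sdc1 first (0.975) over 11. Plin4 had Mknk2 first over both sets (0.992 and 0.977), followed by Dcaf8 and Phldb1 in either order, and Plin5 had Atp9a first over both (0.976 and 0.971).

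Cidec was closest to Fitm2 (r = 0.993) over 12 libraries and to Plin1 (0.983) over 11, and Fitm2 was closest to H6pd (0.994) over 12 and to Sun2 (0.976) over 11. The nearest gene of Bscl2 was Pemt (0.981) over 12 libraries and Acbd4 (0.958) over 11, and that of Fitm1 was Spint4 (0.994 over 12), which rests on ND replicate 1 as the Fitm1 value does.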

How the data were processed

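RNA from the eWAT of 12 mice, 3 in each of the ND, HFD, GT and TJ groups, was sequenced from TruSeq libraries. The authors filtered the reads, mapped them with STAR to a genome of Ensembl release 72 and deposited FPKM computed with Cufflinks, masking noncoding genes and correcting for multireads and fragment bias. The submitters' processing notes name CASAVA 1.8.2, STAR 2.4.0 and Cufflinks 2.1.1, and the methods another STAR version. The methods name the human genome, while all 23474 identifiers are mouse ones. The authors' own counts were not used here.

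GENCODE mouse release 21 (GRCm38) named 22671 identifiers and left 803 without a symbol. Each pair of groups was fitted with limma 3.58.1 (R 4.3.3; lmFit, eBayes with trend) on log2(FPKM + 1), with the 6 libraries of the pair, a filter at a mean of 1 FPKM, and Benjamini-Hochberg adjustment over all of them. Replicates were different mice. The depth was estimated from 2315 genes with a single long transcript, and no counting interval was derived from it. Intervals are at 95%. Single values were compared with exact permutation tests (scipy 1.17.1). The fits were also run on simulated data with independent noise for each gene. That setting holds no outlying library and no shift shared between genes, so it cannot test the calls against either. Every member is named, and from the wider list the called genes with the largest changes, up to 3 in each direction. The genes and lists were chosen with earlier results of these data known.

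The correlation of deviations between libraries of the same number was 0.55, 0.34 and 0.12 for HFD and ND, each over 0.1. HFD replicate 3 correlated more closely with ND replicate 2 (0.63), and nothing in the labels names what the numbers share. The block is therefore given as an alternative fit and does not show that those libraries were paired. Alternatives were another pseudocount (0.1), no filter or at least 5 FPKM, median-of-ratios and quantile scaling, all 12 libraries, the replicate block, no trend, array weights, no fold threshold, removal of the length trend (loess span 0.5) and each library left out. Fits that combine the removal of ND replicate 1 with a block, another scaling or all other libraries were added after seeing the data.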

Additional observations from a re-analysis of the deposited data

How the results depend on the processing

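No alternative turned the direction of the 7 genes in TJ against HFD, and in GT against HFD only that of Plin3 turned, with a library left out (-0.055 to 0.17). In TJ against HFD the members called were 0 with no filter and 0 with all 12 libraries, 0 to 4 with a library left out and 3 to 5 otherwise. Among all genes the calls were 382 with no filter, 1 with all 12 libraries and 1198 with the replicate block, and 0 to 3412 with a library left out. For the wider list they were 2, 0 and 3 in those settings, and 0 to 10 with a library left out.

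In GT against HFD the members called were 0 with no filter, 0 with all 12 libraries, 0 with the replicate block, 1 with no trend, 4 with a mean of 5 FPKM or more and 4 with the length trend removed, and 0 to 4 with a library left out. All genes called were 5, 1 and 5 in those first 3 settings, 67 with no trend and 1589 with array weights, and 4 to 1107 with a library left out. The wider list had 0 calls with no filter, all 12 libraries, the block or no trend, and 0 to 6 with a library left out.

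In HFD against ND the members called were 2 with all 12 libraries and 6 with array weights, and 0 to 5 with a library left out. Without ND replicate 1, in fits added after seeing the data, they were 1 with the block, 5 with median-of-ratios scaling, 6 with quantile normalization and 6 with all other libraries. All genes called were 126 with a pseudocount of 0.1, 1131 with all 12 libraries, 0 with the block, 6057 with array weights, 501, 1698, 1922 and 2656 in the 4 added fits, and 0 to 2098 with a library left out. The wider list had 4 calls with all 12 libraries, 15 with array weights, 1 with the length trend removed, 7 (median-of-ratios), 8 (quantile), 10 (all other libraries) and 0 (block) in the added fits, and 0 to 12 with a library left out.

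Cidec turned in HFD against ND, with log2 fold changes of -0.93 with array weights and of -0.91 (block), -0.92 (median-of-ratios), -0.88 (quantile) and -0.88 (all other libraries) in the added fits, and -0.88 to 1.17 with a library left out. Fitm2 turned likewise, at -0.87 with array weights and -0.81, -0.87, -0.95 and -0.82 in the added fits, and -0.82 to 0.79 with a library left out. Plin4 ranged from -1.58 to 0.70 with a library left out.

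In TJ against GT the members called stayed at 0. All genes called were 11 with a pseudocount of 0.1, 6 with no filter, 6 with a mean of 5 FPKM or more, 29 with quantile normalization, 4 with all 12 libraries and 1659 with array weights, and 4 to 81 with a library left out, and array weights called 2 genes of the wider list. Signs near 0 turned for Plin4 (0.00197 with median-of-ratios scaling, 0.21 with the length trend removed, -0.23 to 0.17 with a library left out) and Plin5 (-0.069 with array weights, -0.035 with the length trend removed, -0.19 to 0.35 with a library left out). With a library left out, Cidec ranged from -0.31 to 0.052 and Fitm2 from -0.31 to 0.013.

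Relative to Adipoq in place of Plin1, the log2 difference was -0.45 for Plin4 in TJ against HFD, 0.067 for Cidec in GT against HFD and, in TJ against GT, -0.73 for Plin4, -0.58 for Plin5, -0.83 for Cidec, -0.89 for Fitm2 and -0.84 for Bscl2. Relative to Plin1 with a library left out, TJ against GT ranged from -0.66 to 0.15 for Plin2, from -0.50 to 0.061 for Plin3, from -0.071 to 0.058 for Fitm2 and from -0.12 to 0.22 for Bscl2. GT against HFD ranged from -0.030 to 0.19 for Plin4, and HFD against ND from -1.89 to 1.06 for Bscl2.

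In TJ against HFD, GT against HFD and TJ against GT the replicate numbers did not pair the libraries (correlations of same-numbered deviations from -0.21 to 0.37, and not every library closest to its own number), and the block left 3, 0 and 0 members called. In HFD against ND, too, not every library was closest to its own number. With a library left out, its group rests on 2 libraries. The FPKM values hold counting noise, but its size is not given with them. Precision therefore rests on the spread of 3 mice a group. The causes of these changes were not tested.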
